A study of Mus musculus with 6 samples.

Results

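In mouse liver, 10 genes of the NRF2 pathway were followed: the transcription factor gene Nfe2l2, its inhibitor Keap1, and 8 genes that NRF2 is known to induce (Nqo1, Srxn1, Txnrd1, Gclc, Gclm, Slc7a11, Hmox1 and G6pdx). They were chosen by name, with earlier results of these data known, as 10 of the 55357 genes counted. The glutathione transferases were set aside. After esculetin, Nqo1 rose 2.59-fold and was the only one of the 10 to pass the study's thresholds. Srxn1 and Keap1 were higher in every esculetin library than in every vehicle library, by less than 1.5-fold. The genes of glutathione synthesis, Gclc and Gclm, had ratios of 1.04 and 0.994 between the groups, and Hmox1 and Txnrd1 of 1.08 each, all with overlapping libraries.

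NRF2 is a transcription factor that heterodimerizes with small MAF proteins and binds antioxidant response elements in the promoters of its targets. In unstressed cells KEAP1, a cysteine-rich adaptor of a CUL3 ubiquitin ligase, holds NRF2 in the cytoplasm and directs its degradation. Electrophiles and oxidants modify KEAP1 cysteines, so NRF2 escapes degradation. It then raises transcripts of quinone reduction, thioredoxin recycling, glutathione synthesis, heme breakdown and NADPH supply. This control acts mainly on the NRF2 protein, which an mRNA assay does not measure.

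Livers came from male wild-type C57BL6/J mice aged 8 to 9 weeks. Both groups were gavaged daily for 7 days and ate a control diet with 10% of energy as fat for 4 days, then a high-fat diet (HFD) with 60% for 3 days. The vehicle group received 2.5% Tween-80. The esculetin group received esculetin, a natural coumarin derivative. Its dose is 180 mg/kg/d in the library titles, the treatment protocol and the names of the count columns, but 90 mg/kg/d in the treatment annotation of the same libraries. Legends in the study name the lower dose, or both, for liver sequencing, so the dose is not settled here. Each group had 3 libraries, and each library pooled the livers of 2 mice, so a value is a mean over a pair of animals. No group without HFD was analysed here, so every value below stands on that diet.

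Total counts ran from 27957713 to 34920922, and each of the 3 esculetin libraries was deeper than any vehicle library. The share of counts from mitochondrial genes was 6.87% to 7.26% with esculetin and 7.31% to 7.62% with vehicle, and the 20 most counted genes took 24.1% to 25.4% and 25.5% to 27.1%. Neither range overlapped between the groups, and the part of these differences in the results below was not tested. Levels are given in CPM, the count of a gene relative to the total of its library, scaled by TMM, a factor that evens out library composition. Summed hepatocyte markers spanned 90710 to 94169 CPM with vehicle and 87780 to 95994 CPM with esculetin. Alb makes up most of that sum. Of these 10 markers 8 were higher and 2 lower (median log2 fold change 0.053), with Asgr1 above vehicle in every library (0.29, not called). The other marker sums also overlapped between groups, although single markers were called. Endothelial markers summed to 279 to 340 CPM with vehicle and 299 to 338 CPM with esculetin. Stellate cell markers summed to 321 to 384 CPM and 286 to 378 CPM. Of these 8 markers 6 were lower (median log2 fold change -0.18), with Pdgfrb below vehicle in every library (-0.24, not called), and Des was called higher (0.69). Cholangiocyte markers summed to 39.7 to 80.8 CPM and 30.7 to 45.9 CPM. Spp1, which makes up most of that sum, was called lower (-0.75), while the other 4 tested were higher and not called (median of the 5, 0.24). Lymphocyte and neutrophil markers, 1 of which had no count in any library, summed to 17.1 to 18.8 CPM and 13.8 to 20.6 CPM, with Cd79a (1.12) and S100a9 (0.99) called higher and Ptprc below vehicle in every library (-0.30, not called). Erythroid markers summed to 127 to 155 CPM and 114 to 178 CPM, with Hba-a2 called higher (0.79) and Alas2 below vehicle in every library (-0.24, not called). Apart from Spp1, the called markers averaged under 3 CPM in each group, and their part in the results below was not tested.

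The antioxidant response element has a core that is often written TGACNNNGC, and a common variant is TGAGNNNGC. Both were searched on both strands around the start sites of 21614 protein-coding genes of GRCm39. In the window from 250 bases before the start site to 50 bases from it, 27.4% of all promoters held at least 1 of these cores, as did 5 of the 10 genes (Srxn1, Txnrd1, Gclm, Hmox1 and Slc7a11). In the window that reached 1000 bases upstream, 59.1% of all promoters and 7 of the 10 genes held one, with Nqo1 and Nfe2l2 added. The letters and the longer window were settled after the windows of these genes had been read. All upstream matches of Nqo1 and Srxn1 in the longer window are shown because these were the targets with the largest differences. All those of Gclm and Txnrd1 are shown as examples of genes that differed little. Hmox1 also differed little and held 2 TGAGNNNGC cores, and Srxn1 held a TGACNNNGC core past its start site. These are not shown, so the lines below do not sort the 2 cores by difference. Capitals mark the 9 bases of the core, and each line reads 5′ to 3′ on the strand that holds it.
Nqo1, 339 bases upstream, chr8:108130257-108130281, minus strand: agtcacagTGAGTCGGCaaaatttg
Srxn1, 45 bases upstream, chr2:151947391-151947415, plus strand: attcacccTGAGTCAGCggccgggc
Srxn1, 158 bases upstream, chr2:151947278-151947302, minus strand: agagaggaTGAGTCGGCtctcagta
Srxn1, 360 bases upstream, chr2:151947076-151947100, minus strand: ctaatgagTGAGTGAGCcgaggccc
Gclm, 54 bases upstream, chr3:122039064-122039088, minus strand: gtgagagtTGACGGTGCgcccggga
Txnrd1, 65 bases upstream, chr10:82694940-82694964, minus strand: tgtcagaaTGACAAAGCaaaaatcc
Txnrd1, 371 bases upstream, chr10:82694634-82694658, minus strand: actggctgTGACCCTGCcaaatagt
The distance is counted to the farthest base of the core from the start of the canonical transcript in the annotation. For Txnrd1 that start, position 82695013, lies inside the gene's span, since other transcripts begin farther upstream. The Nqo1 match and the Srxn1 match 158 bases upstream carry the same 9 core bases. Keap1, Gclc and G6pdx held neither core in either window, which says only that these letters are not there.

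The test was the quasi-likelihood fit of edgeR over all 14433 genes with enough counts, esculetin against vehicle. A gene was called at the study's thresholds, an unadjusted p-value under 0.05 together with a fold change over 1.5. Of the 10 genes 9 were tested, since Slc7a11 fell below the count filter. Of these 1 was called higher, against 1.37% of all genes tested, and 0 were called lower, against 1.76%. With the p-value alone 3 were higher, against 6.53% of all genes, and 0 were lower, against 5.32%. Every esculetin library lay above every vehicle library for the same 3 genes (Nqo1, Srxn1 and Keap1), against 9.2% of all genes, and 0 genes showed the opposite, against 8.24%. After Benjamini-Hochberg adjustment over all genes, 0 of the 9 had an edgeR adjusted p-value under 0.05, against 0.0416% of all genes. With DESeq2 2 of the 9 did, as did 193 of the 14433 genes fitted. By its default DESeq2 set genes of low count aside before adjusting, so its adjustment covered fewer genes. The median log2 fold change was 0.11 over the 9 genes and -0.0080 over all genes tested. Since the 10 genes were chosen with earlier results of these data known, these counts are a description.

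**Figure D1:**
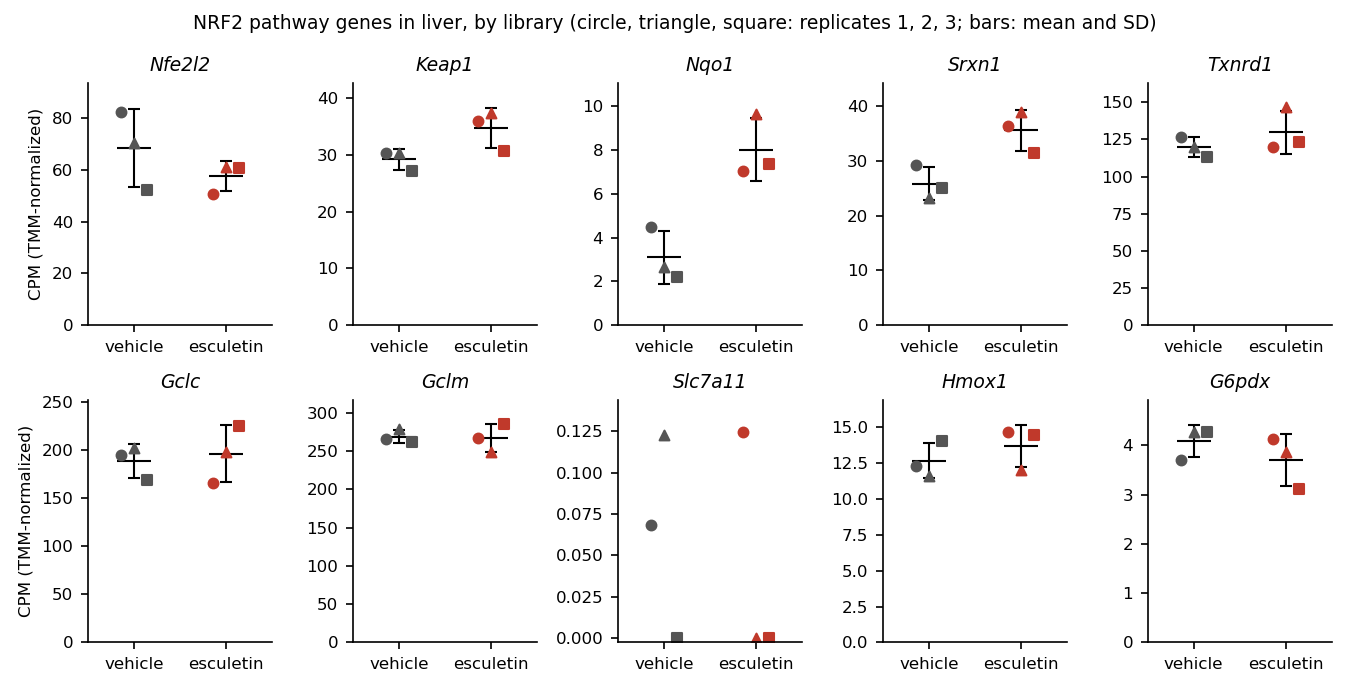
Levels of the 10 genes in CPM (vertical axes, each panel on its own scale from 0) in the 3 vehicle and 3 esculetin libraries, with the mean and SD as bars except for Slc7a11. Nqo1 spans 2.19 to 4.46 CPM with vehicle and 7.03 to 9.66 CPM with esculetin, while the groups of Nfe2l2, Txnrd1, Gclc, Gclm, Hmox1 and G6pdx overlap.

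Nqo1 (ENSMUSG00000003849, chr8:108113835-108129934, minus strand) encodes NAD(P)H quinone dehydrogenase 1, which reduces quinones without releasing semiquinone radicals and is a widely used readout of NRF2 activity. Its level was 4.46, 2.64 and 2.19 CPM in vehicle libraries 1, 2 and 3 and 7.03, 9.66 and 7.35 CPM in the esculetin libraries. All esculetin libraries were above all vehicle libraries, and vehicle library 1 was the highest of its group. The means were 3.10 ± 1.20 CPM with vehicle and 8.01 ± 1.44 CPM with esculetin (SD, n = 3 each). These levels rest on modest counts, 60 to 131 reads with vehicle and 226 to 335 with esculetin. The log2 fold change was 1.37 (SE 0.26), which is 2.59-fold with a 95% interval of 1.74 to 3.85. Its unadjusted p-value was 0.000367, rank 37 among the genes tested, and its edgeR adjusted p-value was 0.132. Nqo1 was called in all 8 alternative fits that used every library and in all 6 that left 1 library out. The adjusted p-value was 5.47e-05 with DESeq2, 1.39e-07 without the count filter, 0.0179 without vehicle library 1, and between 0.130 and 0.473 in the others. With every library thinned to the smallest total, the log2 fold change was 1.36.

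The level of Nqo1 was also set against the rest of the pathway, after its rise had been seen, as a description. The ratio of Nqo1 to each of the other 8 genes tested was higher in every esculetin library than in every vehicle library. The smallest difference in the log2 ratio was 0.96, against Srxn1, and the largest was 1.65, against Nfe2l2. The 8 ratios share Nqo1 and restate its rise, so no test is given.

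**Figure D2:**
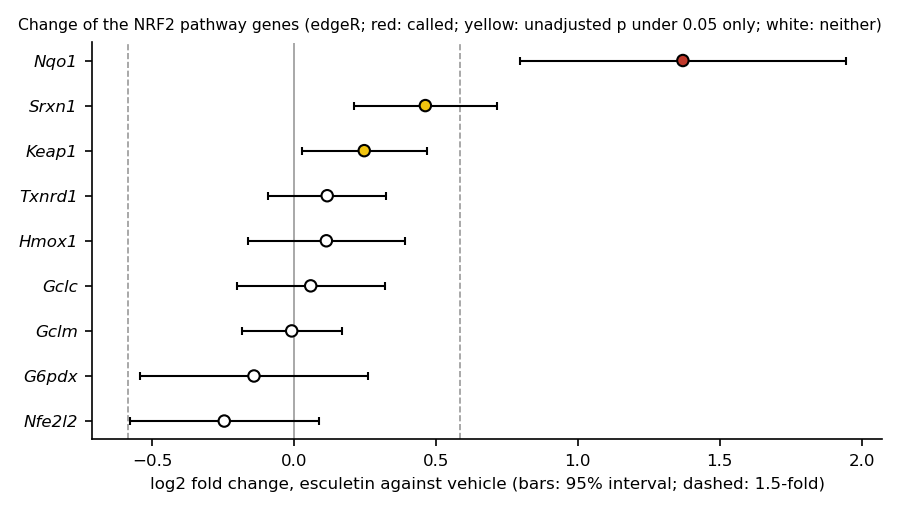
Log2 fold changes of the 9 genes tested (points) with 95% intervals (bars), esculetin against vehicle; dashed lines mark 1.5-fold in either direction. The interval of Nqo1, 0.79 to 1.95, lies beyond the 1.5-fold line, that of Srxn1, 0.21 to 0.71, lies above 0 and across the line, and that of Gclm, -0.18 to 0.17, surrounds 0.

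Srxn1 and Txnrd1 belong to the thiol branch of the response. Srxn1 (ENSMUSG00000032802, chr2:151947436-151957687, plus strand) encodes sulfiredoxin, which restores overoxidized peroxiredoxins. Its level was 29.2, 23.3 and 25.1 CPM in the vehicle libraries and 36.4, 38.9 and 31.5 CPM in the esculetin libraries. The groups did not overlap, although the lowest esculetin library stood close to the highest vehicle library. On the log2 scale the difference was 0.46 (SE 0.11), or 1.38-fold with a 95% interval of 1.16 to 1.64. The unadjusted p-value was 0.00225 and the edgeR adjusted p-value 0.183, and over the alternatives the adjusted value ran from 0.00363 without the count filter to 0.511 without vehicle library 2. Srxn1 thus had a p-value under 0.05 but did not reach 1.5-fold, and it was called in none of the 14 alternative fits.

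Txnrd1 (ENSMUSG00000020250, chr10:82669785-82733546, plus strand) encodes the cytosolic thioredoxin reductase, a selenoenzyme that recycles thioredoxin with NADPH. It stood at 126, 120 and 113 CPM with vehicle and 120, 146 and 124 CPM with esculetin. The groups overlapped, with esculetin library 2 the highest of all. The log2 fold change was 0.12 (SE 0.093), and its 95% interval of -0.092 to 0.33 leaves out a change of 1.5-fold in either direction.

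The regulators themselves gave small differences of opposite sign. Keap1 (ENSMUSG00000003308, chr9:21141026-21150679, minus strand), the sensor and repressor, was at 30.4, 30.3 and 27.1 CPM with vehicle and 36.0, 37.4 and 30.8 CPM with esculetin. The groups did not overlap, but esculetin library 3 was only just above vehicle libraries 1 and 2. On the log2 scale it differed by 0.25 (SE 0.098), or 1.19-fold with a 95% interval of 1.02 to 1.38. The unadjusted p-value was 0.0313 and the edgeR adjusted p-value 0.368. The unadjusted value passed 0.05 in 3 of the 6 fits that left 1 library out. It was 0.104 without vehicle library 3, 0.0825 without esculetin library 1 and 0.120 without esculetin library 2, and it was 0.0543 with total counts in place of TMM.

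Nfe2l2 (ENSMUSG00000015839, chr2:75504739-75534985, minus strand) encodes NRF2. It had 82.5, 70.4 and 52.4 CPM with vehicle and 50.9, 61.2 and 61.0 CPM with esculetin. Vehicle libraries 1 and 2 were the highest, while vehicle library 3 lay among the esculetin libraries. The means were 68.4 ± 15.1 CPM and 57.7 ± 5.88 CPM (SD, n = 3 each). The log2 fold change was -0.25 (SE 0.15), with a 95% interval of -0.58 to 0.087 and an unadjusted p-value of 0.131. Without vehicle library 3 the log2 value was -0.40 and the unadjusted p-value 0.00611. Without vehicle library 1 they were -0.090 and 0.530, so this value rests on single vehicle libraries. Without the count filter that p-value was 0.0272.

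Gclc and Gclm encode the catalytic and modifier subunits of glutamate-cysteine ligase, the rate-limiting enzyme of glutathione synthesis. Gclc (ENSMUSG00000032350, chr9:77661797-77701770, plus strand) was at 195, 203 and 169 CPM with vehicle and 167, 198 and 226 CPM with esculetin. Esculetin libraries held both the lowest and the highest value. The log2 fold change was 0.059 (SE 0.12), with a 95% interval of -0.20 to 0.32, and its sign turned when vehicle library 3 or esculetin library 3 was left out. Gclm (ENSMUSG00000028124, chr3:122039126-122065061, plus strand) was at 266, 278 and 262 CPM with vehicle and 267, 249 and 286 CPM with esculetin. Its log2 fold change was -0.0084 (SE 0.079), with a 95% interval of -0.18 to 0.17. Gclm was the most evenly measured of the genes, with a coefficient of variation of 3.19% in the vehicle group and 6.87% in the esculetin group. The intervals of both subunits leave out a 1.5-fold change in either direction.

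Slc7a11 (ENSMUSG00000027737, chr3:49846975-50398070, minus strand) encodes the light chain of the cystine importer that feeds glutathione synthesis. It had 2, 4 and 0 counts in the vehicle libraries and 4, 0 and 0 in the esculetin libraries. A level of 3 counts corresponds to between 0.0865 and 0.109 CPM in these libraries. The transcript was therefore near the limit of detection in both groups, the count filter left it out, and no fold change is given. In the fit without that filter it was not called. Such limits cover counting error only.

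Hmox1 (ENSMUSG00000005413, chr8:75820241-75827217, plus strand) encodes heme oxygenase 1, which breaks heme down to biliverdin, iron and carbon monoxide. Its level was 12.3, 11.6 and 14.0 CPM with vehicle and 14.6, 12.0 and 14.4 CPM with esculetin. The groups overlapped, and the log2 fold change was 0.11 (SE 0.12), with a 95% interval of -0.16 to 0.39 and an unadjusted p-value of 0.380. In liver, Kupffer cells are a known source of this transcript. The 10 Kupffer cell and macrophage markers summed to 369 to 487 CPM with vehicle and 382 to 395 CPM with esculetin. Of these, 7 were lower with esculetin, 1 with an unadjusted p-value under 0.05 (Cd68, log2 fold change -0.37), and 0 were called. Cd68, Timd4 (-0.24) and Csf1r (-0.15) were below vehicle in every library, 3 of the 10 against 8.24% of all genes, and 0 were above. The part of these markers in the Hmox1 value was not tested. In whole liver fewer cells of a type and less RNA per cell cannot be told apart.

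G6pdx (ENSMUSG00000031400, chrX:73449857-73472819, minus strand) encodes glucose-6-phosphate dehydrogenase, the entry enzyme of the pentose phosphate pathway and a source of NADPH. It stood at 3.71, 4.27 and 4.27 CPM with vehicle and 4.14, 3.86 and 3.11 CPM with esculetin. Esculetin library 3 was the lowest, and the groups overlapped. The log2 fold change was -0.14 (SE 0.18), with a 95% interval of -0.54 to 0.26 and an unadjusted p-value of 0.449. The gene lies inside Ikbkg, which is transcribed from the opposite strand and had 10789 counts over the 6 libraries. Since the strand setting of the counting is not given in the sources used here, the G6pdx level is uncertain.

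Divided by exon length, the levels of these genes spread widely. That length joins the exons of all annotated transcripts of a gene and can exceed that of the transcript present. It was 9391 bases for Srxn1, whose canonical transcript has 2 exons, and 2748 for Nqo1, so the order depends on the annotation. In CPM per kb of exon, the vehicle means were 33.8 for Gclm, 30.2 for Gclc, 16.9 for Txnrd1, 12.5 for Nfe2l2, 7.19 for Hmox1, 5.14 for Keap1, 2.75 for Srxn1, 1.13 for Nqo1, 0.631 for G6pdx and 0.00410 for Slc7a11. By this measure the ligase subunits were the most abundant of these transcripts and the quinone reductase one of the least. In the vehicle group the ranges of neighbours in this order did not overlap. The esculetin means kept the order, but Gclm and Gclc then overlapped. So did Srxn1, at 3.35 to 4.14 CPM per kb, and Nqo1, at 2.56 to 3.51 CPM per kb. Before division the esculetin means were 35.6 CPM for Srxn1 and 8.01 CPM for Nqo1, so their overlap rests on the lengths used.

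**Figure D3:**
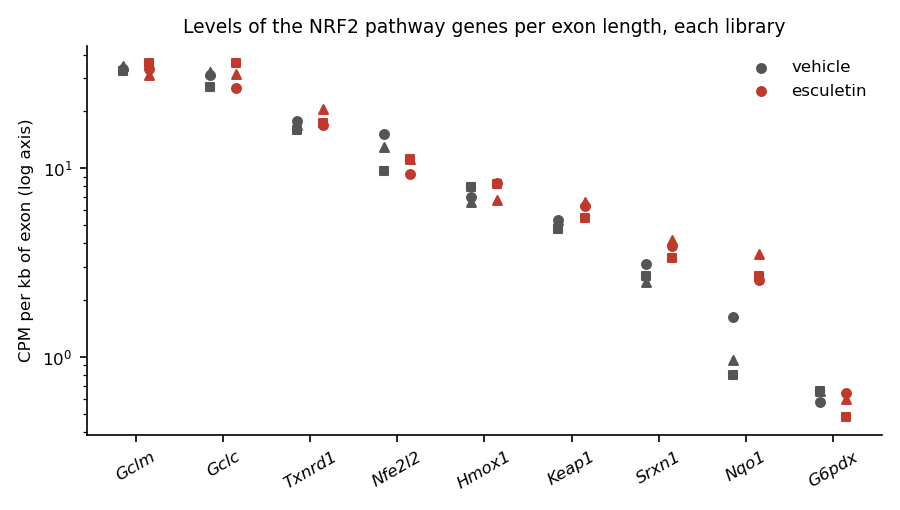
Level of each gene per kb of all its annotated exons (CPM per kb, log axis) in the vehicle and esculetin libraries. Genes are ordered by the vehicle mean. Circles, triangles and squares are replicates 1, 2 and 3, and Slc7a11 is left out because 3 of its libraries had no count. With esculetin, Nqo1 stands at 2.56 to 3.51 CPM per kb and meets the range of Srxn1, while with vehicle it lies at 0.796 to 1.62 CPM per kb, below Srxn1.

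To set the 10 genes in their pathway, 75 other genes linked to NRF2 were grouped in 7 lists, and 70 of them had enough counts to be tested. With esculetin 57 were higher and 13 lower, against 6993 and 7440 of all genes tested, with a median log2 fold change of 0.15. By the study's thresholds 6 were called higher (Maff, Txnip, Pir, Abcc3, Cyp2a5 and Gdf15) and 0 were called lower, against 1.37% and 1.76% of all genes tested. With the unadjusted p-value alone, 26 were higher, or 37.1% of those tested, and 1 was lower, against 6.53% and 5.32% of all genes. One of the 70, Cyp2a5, had an edgeR adjusted p-value under 0.05. The lists hold genes whose rise was known from earlier results of these data, Cyp2a5 among them, so their counts are a description. The lower mitochondrial and top-gene shares and greater depth of the esculetin libraries go with the same split.

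Each list was then counted by an unadjusted p-value under 0.05, which 6.53% of all genes tested met as higher and 5.32% as lower. Among genes of quinone, carbonyl and epoxide reduction, 9 of 14 were higher by that measure and 0 lower, with a median log2 fold change of 0.31. Pir, a nuclear iron-binding protein, rose from 11.0 ± 3.37 to 17.5 ± 1.94 CPM (SD, n = 3 each), a log2 fold change of 0.66. It was not called without vehicle library 3, where the value was 0.48, nor without esculetin library 3, where it was 0.57. Ugdh, which makes UDP-glucuronic acid for conjugation, had the smallest p-value of the list, 0.00177, at a log2 fold change of 0.37.

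Among heme and iron genes 4 of 9 were higher and 0 lower at that p-value, and none was called (median log2 fold change 0.14). Blvrb, a biliverdin reductase that acts downstream of heme oxygenase, gave the smallest p-value, 0.000722, at a log2 fold change of 0.41. In the wider thioredoxin system 3 of 8 were higher and 0 lower (median 0.14). Thioredoxin itself, Txn1, was at 142, 145 and 139 CPM with vehicle and 168, 164 and 168 CPM with esculetin, a log2 fold change of 0.23. Its unadjusted p-value was 0.00674. Txnip, which binds thioredoxin and restrains it, was called at a log2 fold change of 0.78, but esculetin library 3 held 104 CPM against 44.9 and 48.2 CPM in the other two. Without that library the log2 fold change was 0.29, below the threshold, and with DESeq2 or without vehicle library 2 the unadjusted p-value was 0.0545 and 0.0627.

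In the wider glutathione list 3 of 8 were higher and 0 lower, none called, with a median log2 fold change of 0.15. Chac1, which breaks glutathione down, had the highest estimate, 0.93 (SE 0.76, unadjusted p-value 0.246), with levels from 0.272 to 7.44 CPM within the vehicle group. It was called with limma-voom, without the count filter, with the replicate block and without vehicle library 3. Its smallest p-value, 0.0280, belonged to the glutaredoxin gene Glrx, at a log2 fold change of 0.35. Among the 8 other genes of NADPH supply, 0 had an unadjusted p-value under 0.05 in either direction with edgeR, and 0 with DESeq2 or limma-voom. All 8 estimates were above 0, up to 0.18 for the transketolase gene Tkt, whose p-value was 0.0995.

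Among 12 further regulators, 2 were higher and 1 lower at the unadjusted p-value, with a median log2 fold change of 0.055. Maff, a small MAF partner, rose from 4.49 ± 1.93 to 8.01 ± 2.32 CPM (SD, n = 3 each), although its groups overlapped. Its log2 fold change was 0.83 and its unadjusted p-value 0.0271. It was not called without vehicle library 1 (log2 fold change 0.54, unadjusted p-value 0.0740), vehicle library 3 (0.84, 0.0527), esculetin library 1 (0.74, 0.0716) or esculetin library 3 (0.67, 0.0894). Without vehicle library 2 the log2 fold change was 1.18. Btrc, part of a second ubiquitin ligase that acts on NRF2, was the single gene lower at that p-value. Its log2 fold change was -0.43 and its unadjusted p-value 0.00564, and it did not reach 1.5-fold.

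The last list, of export and other linked targets, held 3 of the 6 called genes, and 5 of its 11 tested members were higher at the unadjusted p-value, with 0 lower. Cyp2a5, a coumarin hydroxylase, rose from 379 ± 40.5 to 1269.6 ± 114 CPM (SD, n = 3 each), a log2 fold change of 1.74 with an edgeR adjusted p-value of 0.000267. How the counting treated reads shared with near-identical Cyp2a genes is not given, so its level is uncertain. Abcc3, a basolateral exporter of conjugates, rose from 83.7 ± 23.4 to 188 ± 24.9 CPM (log2 fold change 1.17, edgeR adjusted p-value 0.0771). Gdf15, a stress hormone, rose from a low 0.460 ± 0.0264 to 2.21 ± 0.490 CPM (log2 fold change 2.25, edgeR adjusted p-value 0.0551). Cyp2a5, Abcc3 and Gdf15 were called in all 8 alternative fits with every library and in all 6 that left 1 out.

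**Figure D4:**
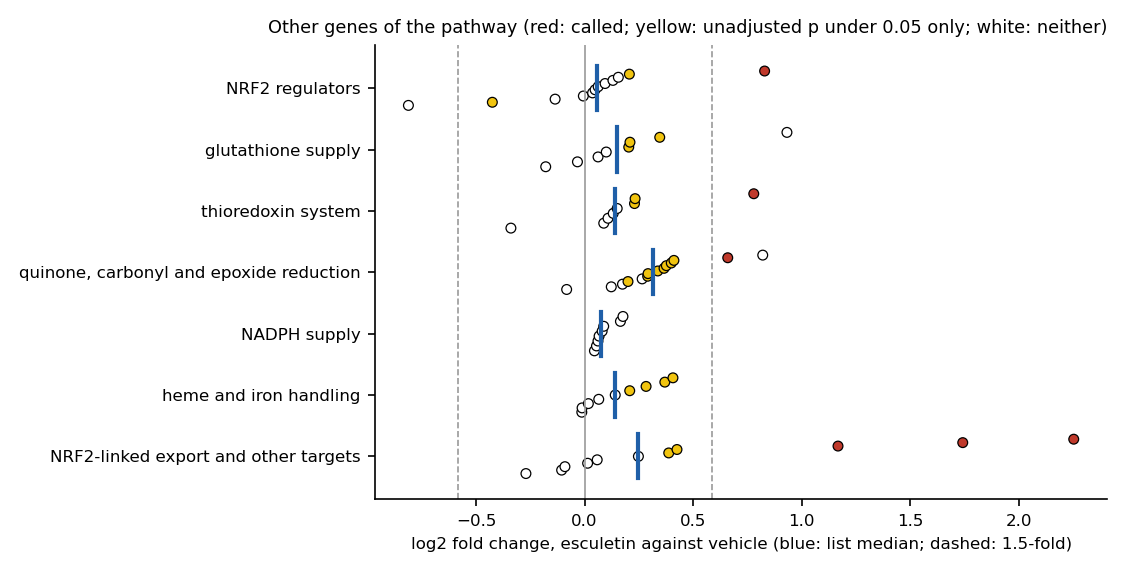
Log2 fold change, esculetin against vehicle, of the 70 other pathway genes tested (points), by list, with the list median as a blue bar; dashed lines mark 1.5-fold. Medians run from 0.055 for the regulators to 0.31 for quinone, carbonyl and epoxide reduction, and the largest called value, 2.25, is that of Gdf15.

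The genes whose pattern over the 6 libraries was closest to that of Nqo1 were sought among 8974 genes with a mean of at least 5 CPM. Likeness was the root mean square difference of log2 CPM after centring each gene. The closest was Abcc3, at 0.159, then the glutathione transferase gene Gstm1, at 0.165, and the processed pseudogene Gstm2-ps1, at 0.175. The latter pair shares sequence with other mu-class genes, so their counts are uncertain. Gstm1 was at a mean of 369 CPM with vehicle and 1009.9 CPM with esculetin. For Srxn1, with its smaller difference, the closest were Fahd2a at 0.0632, Pole4 at 0.0661 and Rpp21 at 0.0688. All 6 points of each pattern come from the same libraries, so likeness over them mostly restates the group difference.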

How the data were processed

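Liver RNA was sequenced as paired-end reads, which the authors aligned to GRCm39 with HISAT2 2.2.1 and counted per gene with featureCounts. The deposited values are raw, whole-number counts. Their annotation release, strand setting and handling of multimapping reads are not given in the sources used here. Columns were matched to libraries by their annotated names. The 10 genes and all lists were chosen with earlier results of these data known. Of 55357 genes, 54749 matched the GENCODE annotation of GRCm39, from which names, positions, exon lengths and start sites were taken. Promoter sequence was read from the GRCm39 genome.

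Genes were kept with filterByExpr, scaled by TMM and tested by quasi-likelihood in edgeR 4.0.16 (R 4.3.3), after the code was tested on simulated data. The edgeR p-values were adjusted by Benjamini-Hochberg over 14433 genes, and those of DESeq2 over fewer, after its default low-count filter. The p-values measure the spread between libraries of 2 mice each (biological coefficient of variation 14.6%). Each standard error was taken from the log2 fold change and its F statistic. DESeq2 1.42.0, limma-voom (limma 3.58.1), DESeq2 size factors, total counts, other count filters, thinning, the replicate number as a block, other thresholds and leaving out each library were alternatives. The chi-square per gene between replicates was at least 24.2, so no library was a copy.

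Genes named were the 10, every called gene and the smallest p-value of each wider list, and the 3 genes most like Nqo1 and Srxn1. Chac1, Ikbkg, Cd68 and the other single markers were named after their values were seen.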

Additional observations from a re-analysis of the deposited data

How the results depend on the processing

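The call of Nqo1 alone among the 10 genes held in all 8 alternative fits with every library, in all 6 that left 1 out, and with a fold change over 2. Without a fold threshold 3 genes passed, and 0 passed when edgeR's adjusted p-value had to be under 0.05 (DESeq2 gave 2, Nqo1 and Srxn1, as did edgeR with no count filter). Of the 75 wider genes 6 were called. That number was 27 without a fold threshold (26 higher, 1 lower; 1711 of all 14433 genes), 3 with a fold change over 2 (217 of all) and 1 by adjusted p-value (6 of all). It ran from 3 (without esculetin library 3, where 564 of 14754 genes were called in all) to 9 (without vehicle library 1, 495 of 14788) when a library was left out. Small differences of 2 genes turned sign: Gclc, at -0.049 to 0.17 (log2) over the left-out libraries, and Gclm, at -0.057 to 0.041 over them and 0.0028 without the count filter. None of the other 7 genes with a log2 value did. Replicate numbers named different mice and did not mark pairs (correlation of same-numbered deviations -0.0689 to 0.00274). With the replicate block, 1 of the 10 and 7 of the wider genes were called, against 399 of all 14433 genes, and the Nqo1 value was 1.41. Over all genes, calls numbered 452 of 14433, and 776 of 24638 without the count filter. Adjusted p-values under 0.05 numbered 6, against 193 with DESeq2, 477 without the filter, 15 with the replicate block, and 2 to 45 when a library was left out. The count filter left out Slc7a11, which was tested only without it and not called, and Nqo1 and G6pdx, at the lowest CPM of the 9 genes tested, had the widest intervals. Causes were not tested.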
